A study of Homo sapiens with 6 samples.

Results

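Divergent transcripts are RNAs that start close to the promoter of a protein-coding gene and run away from it on the opposite strand. In GENCODE 44 those that form a long non-coding RNA (lncRNA) gene of their own are named after the coding neighbour with the suffix -DT, so that ITGB1-DT is the divergent transcript of ITGB1. The members described here are all transcripts of the deposited tables whose gene ID is a GENCODE 44 lncRNA gene with a symbol ending in -DT. They are 1266 of 81818 listed transcripts and 576 of 30061 gene IDs, and GENCODE 44 holds 589 such genes.

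Libraries of A549, a human lung adenocarcinoma cell line (n = 3), were compared with libraries of A549/DDP, derived from it and resistant to cisplatin (DDP), which the sample labels spell A549/DPP (n = 3). Both lines were at passages 6 to 8, and only A549/DDP cells were kept in cisplatin, at 1 µg/mL, so an effect of the drug and the resistant state cannot be told apart. Each is a single line, and the labels number the libraries without saying whether they came from separate cultures, so that p values measure the spread between these libraries. RNA was depleted of rRNA, and the kit keeps the strand.

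Most active mammalian promoters with many CpG dinucleotides start RNA synthesis in both directions. The upstream RNA usually ends early at polyadenylation signals and is degraded by the nuclear exosome, whereas binding of U1 snRNP to splice donor sites protects the coding direction. Some upstream RNAs are stable enough to be annotated as genes of their own. Of the 135 tested member transcripts with an annotated exon count, 17 have a single exon, 64 have 2 and 54 have 3 or more.

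The starts of the divergent gene and of its partner, the gene whose symbol stands before -DT, lay close together. A partner was found for 575 of the 576 members, and in 574 of these it was on the opposite strand. The gap between the 2 annotated starts had a median of 184 bases (quartiles 109 and 363). It was 0 to 300 bases in 358 members, and in 33 the divergent gene started downstream of its partner's start. For 559 members no coding gene started nearer than the partner.

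The promoters of these genes were rich in CpG, as those of their partners were. In the RefSeq promoters (GRCh38.p14, 250 bases before to 50 after the start), 432 members matched by symbol and had a median of 30.5 CpG, the partners 30.0, other lncRNA genes 5.0 and all promoters 14.0. On either strand, the GC box GGGCGG was found in 73.6% of the members and 44.6% of all promoters. The ETS core CCGGAAG was in 18.5% of the members against 10.7% of all promoters, and the NRF1 core CGCATGCG in 3.94% against 2.19%. The TATA box TATAAA was less frequent, in 4.17% of the members against 12% of all promoters, and so was the AP-1 motif TGANTCA, in 4.4% against 7.76%. CCAAT was found in 30.1% against 35.7%, and the antioxidant response element TGACNNNGC in 16.9% against 13.6%. The windows of a divergent gene and its partner overlap where the gap is short. The partners' own shares were 72.6% for the GC box, 5.05% for the TATA box and 16.8% for the antioxidant response element. They were 3.16% for the NRF1 core, 38.1% for CCAAT, 22.7% for the ETS core and 2.74% for AP-1.

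Past the start, letters known from the ends and splice sites of RNA were counted. In the first 1000 bases of the genome from the annotated start, introns included, the polyadenylation signal AATAAA on the sense strand was found in 37.5% of 576 members and in 15.2% of 574 partners. Other lncRNA genes had it in 44% and protein-coding genes in 21.5%. The splice donor GTAAGT was found in 15.1% of the members, 12% of the partners, 22.8% of other lncRNA genes and 17.6% of coding genes. These are counts of letters, not of sites in use.

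The sequences behind the results below are shown 5′ to 3′ on the strand of the divergent gene (hg38), with the 7 motifs above in capitals. They are the bases between the annotated starts of a divergent gene and its partner, which both genes have in common. They are shown for the called ZNF567-DT and for 5 of the members with large differences between the lines, and none of them overlaps an annotated UTR or coding sequence in GENCODE 44.
ZNF567-DT to ZNF567, chr19:36687469-36687611, minus strand: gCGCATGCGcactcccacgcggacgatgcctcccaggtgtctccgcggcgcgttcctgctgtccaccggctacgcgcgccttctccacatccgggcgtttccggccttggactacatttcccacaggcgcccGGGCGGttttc
UBA6-DT to UBA6, chr4:67701156-67701278, plus strand: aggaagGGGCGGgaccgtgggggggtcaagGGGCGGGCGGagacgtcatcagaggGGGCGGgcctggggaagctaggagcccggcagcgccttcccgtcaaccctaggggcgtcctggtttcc
SUCLG2-DT to SUCLG2, chr3:67654613-67654757, plus strand: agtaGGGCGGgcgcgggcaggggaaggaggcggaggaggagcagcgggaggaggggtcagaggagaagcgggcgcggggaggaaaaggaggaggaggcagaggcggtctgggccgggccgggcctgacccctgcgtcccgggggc
RPL37A-DT to RPL37A, chr2:216498762-216498843, minus strand: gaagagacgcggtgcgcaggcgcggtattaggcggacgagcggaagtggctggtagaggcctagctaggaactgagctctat
TMEM161B-DT to TMEM161B, chr5:88268846-88268882, plus strand: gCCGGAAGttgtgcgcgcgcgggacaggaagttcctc
OSER1-DT to OSER1, chr20:44210772-44210906, plus strand: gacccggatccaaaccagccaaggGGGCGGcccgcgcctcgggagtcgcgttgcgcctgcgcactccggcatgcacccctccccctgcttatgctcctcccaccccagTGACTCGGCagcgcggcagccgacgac
The stretch of ZNF567-DT held 19 CpG in 143 bases, with 1 NRF1 core and 1 GC box. That of UBA6-DT held 4 GC boxes, and those of SUCLG2-DT and OSER1-DT held 1 each, the latter with 1 antioxidant response element. The 37 bases between TMEM161B-DT and TMEM161B held 1 ETS core. The stretch of RPL37A-DT held none of the motifs.

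Divergent genes made up a small part of the listed RNA. Values are FPKM (fragments relative to transcript length and to all mapped fragments), deposited for single transcripts, and were summed over the transcripts of a gene ID to give a gene sum. The members summed to 424, 398 and 394 FPKM in A549 replicates 1, 2 and 3, which is 0.696%, 0.635% and 0.679% of all FPKM of the library. In A549/DDP replicates 1, 2 and 3 they summed to 374, 356 and 374 FPKM, or 0.547%, 0.546% and 0.545%. The groups did not overlap. All listed FPKM, to which the shares refer, were 58042.4 to 62589.1 in A549 and higher in A549/DDP libraries, at 65142 to 68664.5. Without ITGB1-DT the member sums were 371 to 384 in A549 and 352 to 371 in A549/DDP cells. They nearly met, at 371.2 in A549 replicate 3 and 370.8 in A549/DDP replicate 1. The shares were then 0.593% to 0.640% and 0.538% to 0.542%. More members were above 0 in A549/DDP cells, with 333 to 354 genes against 302 to 315. The same held for all listed transcripts, of which 51.4% to 53.1% were above 0 against 47.0% to 49.7% in A549. Of the member transcripts 43.5% to 47.2% were above 0 against 39.1% to 41.9%. Read numbers of the libraries are unknown, and their part in these counts was not tested.

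Of the 576 genes, 119 were listed at 0 in all 6 libraries, 195 were above 0 in all 6, and 13 had a mean of at least 5 FPKM. For the tests, 150 gene sums and 219 single transcripts passed the filter of 0.5 FPKM or more in at least 3 libraries. This share of 26.0% was higher than that of the 13560 other lncRNA genes in the tables, of which 12.7% passed. Log2(FPKM + 1) was compared with limma over all features of the tables that passed, and a call needed both an adjusted p (Benjamini-Hochberg) under 0.01 and a log2 fold change beyond 1 in either direction. Because 1 FPKM was added before taking logs, fold changes of low genes come out too small.

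Few divergent genes were called. By limma, 1 gene sum was higher in A549/DDP cells (ZNF567-DT) and 1 was lower (ITGB1-DT), or 0.667% of 150 in each direction, where 1.39% of all 10591 gene sums were higher and 0.963% were lower. Among single transcripts 0 were higher and 1 was lower (an ITGB1-DT transcript), or 0.457% of 219, where 0.353% of all 20663 were higher and 0.198% were lower. At an unadjusted p under 0.05 the number of member transcripts was 47 (21.5%), 21 higher and 26 lower, where the share of all was 21.7%. Of the other lncRNA gene sums 3.53% of 1727 were called in either direction, beside 1.33% of the members.

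Wider thresholds gave similar numbers of members in each direction. An unadjusted p under 0.05 was reached by 38 member gene sums (25.3%, where 27.1% of all were). Of these, 20 were higher (13.3%, against 18.3% of all) and 18 were lower (12%, against 8.71%). At an adjusted p under 0.05 there were 8 members (5.33%, against 9.19% of all), 4 higher and 4 lower. The 3 A549/DDP values lay above all 3 A549 values in 30 members (20%, against 21.8%) and below them in 26 (17.3%, against 10.4%).

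The median log2 fold change of the 150 members was 0.03, with quartiles of -0.38 and 0.34, and that of all gene sums was 0.17. Positive values were found in 79 members (52.7%, against 62.5% of all gene sums) and negative ones in 71. This split depends on the scaling, since after quantile normalization or median-ratio scaling 63 members were positive (42%) and 87 negative. The share of all gene sums also moved, to 52.9% and 51.2% positive, and stayed above that of the members. The median of the members was then -0.11 and -0.09, while that of all gene sums was 0.04 and 0.02. The SD of the fold changes was 0.53 over the members, 0.65 over other lncRNA genes and 0.65 over all gene sums.

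**Figure D1:**
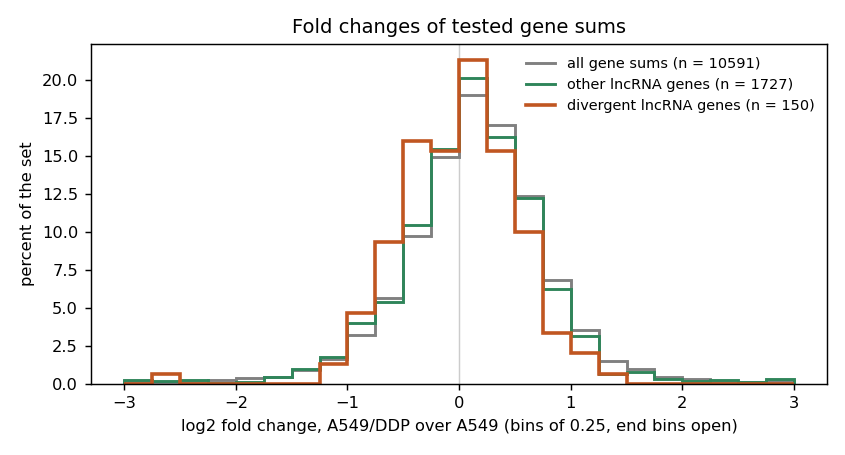
Share of tested gene sums (vertical axis, percent of the set) by log2 fold change of A549/DDP over A549 cells (horizontal axis, bins of 0.25), for 150 divergent lncRNA genes, 1727 other lncRNA genes and all 10591 gene sums. The members have a median of 0.03 against 0.17 for all, and the single member below -2.5 is ITGB1-DT.

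ITGB1-DT had both the highest mean level of all members and the largest difference between the lines. Its partner ITGB1 encodes the integrin β1 subunit, through which cells attach to the extracellular matrix. The ITGB1-DT gene sum was 40.1, 26.4 and 22.8 FPKM in A549 replicates 1, 2 and 3 and 3.55, 3.59 and 4.42 FPKM in A549/DDP replicates 1, 2 and 3. Every A549 library was thus above every A549/DDP library, with A549 replicate 1 the highest. In bulk RNA, fewer cells with a transcript and less of it per cell cannot be told apart. Mean levels were 29.8 ± 9.13 FPKM (A549) and 3.86 ± 0.489 FPKM (A549/DDP; SD, n = 3), a ratio of 7.72, and the log2 fold change was -2.63 (SE 0.27, adjusted p = 0.00142 by limma). Without A549/DDP replicate 2 the adjusted p of 0.0112 was no longer under 0.01, at a log2 fold change of -2.59.

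Nearly all of the difference was listed under a transcript that does not start at the shared promoter. Its start is 24311 bases from that of ITGB1, at the annotated start of ITGB1-DT-206 and within 17 bases of those of ITGB1-DT-201 and ITGB1-DT-207. Its level was 39.2, 25.1 and 21.7 FPKM in A549 and 3.33, 3.25 and 3.76 FPKM in A549/DDP cells (log2 fold change -2.70, SE 0.31, adjusted p = 0.00782). This is the only member transcript called, and none of the fits that left out 1 library called it (adjusted p 0.0224 to 0.0439, log2 fold change -2.87 to -2.45). The fit without a filter (adjusted p = 0.0299) did not call it either.

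The transcript that starts 615 bases from ITGB1, ITGB1-DT-202, was far lower in both lines. It was listed at 0.863, 1.28 and 1.11 FPKM in A549 and at 0.219, 0.339 and 0.660 FPKM in A549/DDP cells. These groups did not overlap either, but the log2 fold change of -0.58 (SE 0.21) had an adjusted p of 0.159. The ITGB1 gene sum was 6.12, 8.03 and 7.56 FPKM in A549 and 6.25, 6.12 and 7.10 FPKM in A549/DDP cells, and these groups overlapped (log2 fold change -0.13, SE 0.23, adjusted p = 0.743). The tables hold mainly non-coding transcripts of coding genes, so a partner sum is not the level of its mRNA. Both ITGB1-DT transcripts overlap the annotated ITGB1 gene on the opposite strand, and no source states that the counting used the strand. They also overlap each other and end at the same base, so the split of reads between them is an estimate.

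**Figure D2:**
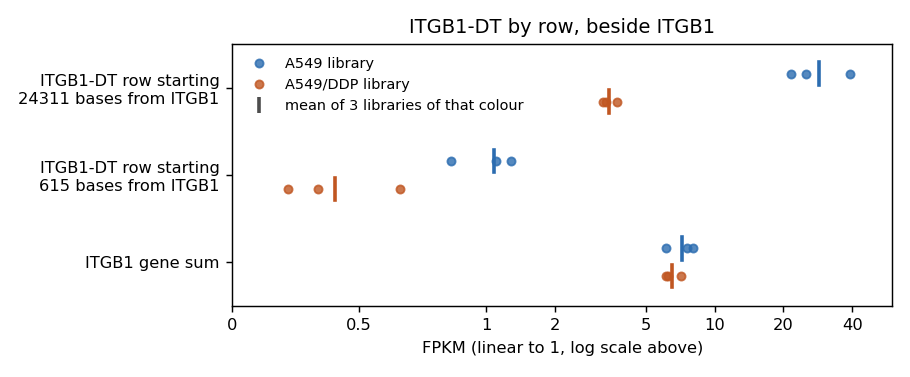
FPKM of the ITGB1 gene sum and of both tested ITGB1-DT transcripts (horizontal axis, linear to 1 and logarithmic above), with 1 point per library and a bar at the mean of each line. For the transcript that starts 24311 bases from ITGB1 the A549 libraries lie between 21.7 and 39.2 and the A549/DDP libraries between 3.25 and 3.76, while the ITGB1 values overlap.

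ZNF567-DT was the member called higher. Its partner ZNF567 encodes a zinc finger protein, and their starts on chromosome 19 are 144 bases apart. The ZNF567-DT gene sum was 0.796, 0.799 and 0.560 FPKM in A549 and 3.74, 3.19 and 3.26 FPKM in A549/DDP cells. Here the lowest A549/DDP library was well above the highest A549 library. The A549 mean was 0.718 ± 0.137 FPKM and the A549/DDP mean 3.40 ± 0.298 FPKM (SD, n = 3), a ratio of 4.73, and the log2 fold change was 1.36 (SE 0.22, adjusted p = 0.00879 by limma). The call was lost without any 1 library (adjusted p 0.0188 to 0.0436) and under most other settings, with the direction kept in each.

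Both tested ZNF567-DT transcripts start near the partner, at 202 and 175 bases. The former was listed at 0.607, 0.0186 and 0.0543 FPKM in A549 and at 2.08, 1.82 and 1.58 FPKM in A549/DDP cells (log2 fold change 1.23, adjusted p = 0.0378). ZNF567 itself was 0.509, 0.452 and 1.04 FPKM in A549 and 0.703, 1.18 and 1.33 FPKM in A549/DDP cells. Groups of ZNF567 overlapped, at a log2 fold change of 0.32 (adjusted p = 0.41).

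The other members with the largest positive values and separated groups were SUCLG2-DT, MTUS1-DT, ANKRD42-DT, HCCS-DT, RPL37A-DT, INSIG1-DT and TMEM161B-DT. None of them was called, and their log2 fold changes were 0.76 to 1.20. SUCLG2 encodes a subunit of succinyl-CoA ligase, an enzyme of the citric acid cycle. SUCLG2-DT was 1.95, 3.42 and 2.54 FPKM in A549 and 8.50, 5.75 and 7.69 FPKM in A549/DDP cells (log2 fold change 1.20, SE 0.26, adjusted p = 0.0283). Of its tested transcripts, 1 starts 85 bases from SUCLG2 (log2 fold change 0.80) and SUCLG2-DT-203 starts 13635 bases away (log2 fold change 1.30). MTUS1 encodes a microtubule-associated protein. MTUS1-DT was listed at 0 in A549 replicates 1 and 2 and at 0.111 FPKM in replicate 3, and at 1.68, 0.880 and 1.36 FPKM in A549/DDP cells. The groups were far apart, and the log2 fold change of 1.14 (SE 0.19) had an adjusted p of 0.0114, close to the threshold. The MTUS1 gene sum had overlapping groups (log2 fold change 0.33).

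RPL37A encodes a protein of the large ribosomal subunit. RPL37A-DT was 0.267, 0.717 and 0.602 FPKM in A549 and 1.87, 2.20 and 1.75 FPKM in A549/DDP cells (log2 fold change 0.95, adjusted p = 0.0327), while RPL37A overlapped between the lines (log2 fold change 0.50). For ANKRD42-DT the A549 libraries themselves were far apart, with 1.84, 0.143 and 1.94 FPKM against 3.40, 4.02 and 3.63 FPKM in A549/DDP cells (log2 fold change 1.14, adjusted p = 0.0934). Without A549 replicate 2 the log2 fold change was 0.69, and in its highest transcript alone 0.17. HCCS, whose product attaches heme to cytochrome c, was not analysed here. HCCS-DT was 1.42, 1.42 and 0.679 FPKM against 3.38, 2.50 and 3.72 FPKM (log2 fold change 0.96, adjusted p = 0.0537). INSIG1 encodes a sterol-dependent regulator of the endoplasmic reticulum. INSIG1-DT was 0.129, 0.588 and 0.497 FPKM against 1.28, 1.61 and 1.28 FPKM (log2 fold change 0.78, adjusted p = 0.0550). TMEM161B-DT, whose start is 38 bases from that of its partner, was 6.05, 5.46 and 3.64 FPKM against 8.43, 10.1 and 8.83 FPKM (log2 fold change 0.76, adjusted p = 0.0925).

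Beside ITGB1-DT, the members with the largest negative values and separated groups were TNFRSF10A-DT, UBA6-DT, SNRPF-DT, OSER1-DT, PFKP-DT, SOCS3-DT and HEATR6-DT. Of these, 0 were called by limma, and their log2 fold changes were -1.13 to -0.83. TNFRSF10A encodes a death receptor for the ligand TRAIL. TNFRSF10A-DT was 5.40, 5.94 and 5.37 FPKM in A549 and 2.33, 1.76 and 1.96 FPKM in A549/DDP cells (log2 fold change -1.13, SE 0.22, adjusted p = 0.0195). TNFRSF10A was 0.474, 0.112 and 0.764 FPKM against 0.826, 0.640 and 0.0506 FPKM, with overlapping groups. A second gene ID with the symbol TNFRSF10A-DT lies on the other strand of the same locus, and at a mean of 0.207 FPKM it did not pass the filter.

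UBA6 encodes an enzyme that activates ubiquitin. UBA6-DT was 9.83, 9.33 and 7.53 FPKM in A549 and 4.20, 3.06 and 3.79 FPKM in A549/DDP cells (log2 fold change -1.08, SE 0.23, adjusted p = 0.0275). Most of it was UBA6-DT-205, which starts 178 bases from UBA6 (6.27 to 7.09 FPKM against 2.32 to 2.71 FPKM). The UBA6 gene sum had a log2 fold change of -0.10 and overlapping groups. SOCS3 encodes a feedback inhibitor of cytokine signalling and was itself not analysed here. SOCS3-DT was 1.49, 0.710 and 1.11 FPKM against 0.289, 0.112 and 0.0719 FPKM (log2 fold change -0.85, adjusted p = 0.0375). It passed the filter only through the A549 libraries. OSER1-DT was 4.17, 2.42 and 2.65 FPKM against 0.722, 1.30 and 1.39 FPKM (log2 fold change -0.92, adjusted p = 0.0639).

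The remaining 3 were SNRPF-DT, PFKP-DT and HEATR6-DT, whose adjusted p values were 0.0733, 0.111 and 0.0812. SNRPF encodes a core protein of the spliceosomal snRNPs. SNRPF-DT was 0.753, 2.22 and 0.789 FPKM in A549, was listed at 0 in A549/DDP replicates 1 and 2, and was 0.437 FPKM in replicate 3. It passed the filter only through the A549 libraries. PFKP encodes the platelet type of phosphofructokinase, an enzyme of glycolysis. PFKP-DT was 2.05, 0.781 and 2.89 FPKM against 0.480, 0.529 and 0.592 FPKM, so that the A549 libraries spread more than the A549/DDP libraries. HEATR6-DT was 1.55, 1.76 and 0.621 FPKM against 0.525, 0.0561 and 0.256 FPKM.

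**Figure D3:**
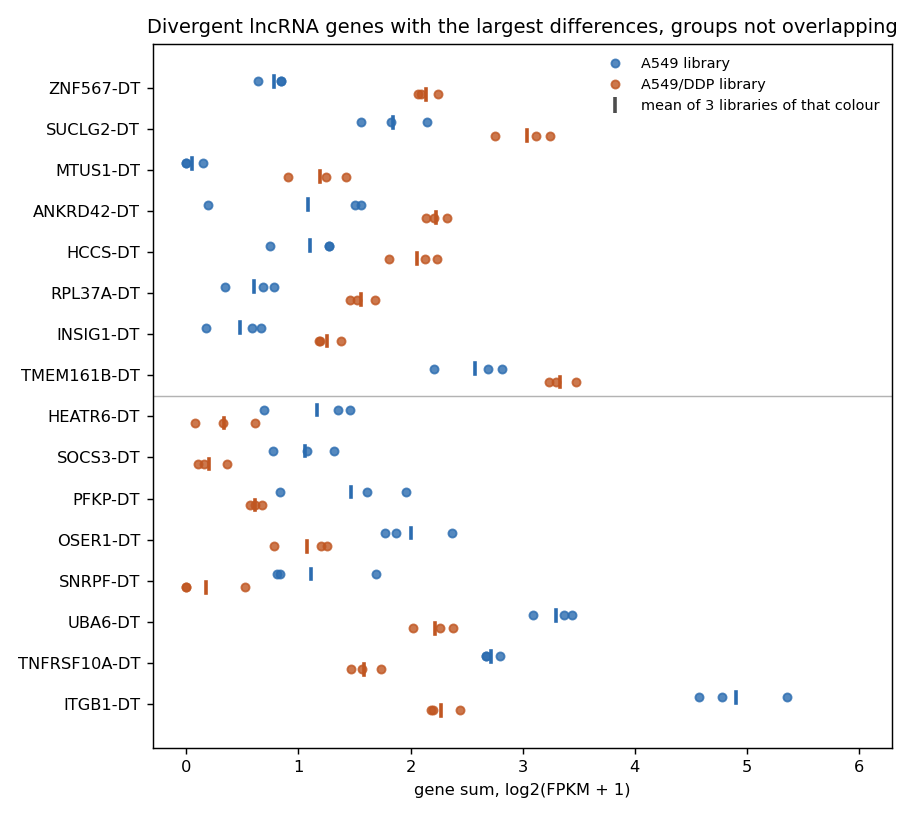
Gene sums as log2(FPKM + 1) (horizontal axis) of the 8 members with the largest positive and the 8 with the largest negative log2 fold change among those whose groups do not overlap, with 1 point per library and a bar at the mean of each line. ZNF567-DT at the top and ITGB1-DT at the bottom are the called genes, and the adjusted p of the others is 0.0114 to 0.111.

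The 10 members with the highest levels were ITGB1-DT, SLC12A2-DT, ZC3H12A-DT, GARS1-DT, RNASEH1-DT, RIPK2-DT, RAB30-DT, C2orf74-DT, EMSY-DT and PCCA-DT. Together they made up 32.1% to 35.2% of the member FPKM in A549 and 23.4% to 25.3% in A549/DDP libraries. RNASEH1-DT was 15.6, 12.3 and 11.9 FPKM in A549 and 6.87, 8.12 and 6.76 FPKM in A549/DDP cells (log2 fold change -0.79, SE 0.23, adjusted p = 0.0653). RNASEH1, which encodes an enzyme that degrades RNA in RNA-DNA hybrids, was at 0.0469 to 0.405 FPKM in all libraries. RIPK2-DT, beside the gene of a kinase of innate immune signalling, was 10.5, 12.6 and 12.4 FPKM against 6.96, 7.26 and 8.58 FPKM (log2 fold change -0.58, adjusted p = 0.141). EMSY-DT was 12.2, 7.64 and 10.5 FPKM against 6.67, 7.07 and 6.41 FPKM (log2 fold change -0.51, adjusted p = 0.223). These 3 had separated groups and were not called.

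The groups of RAB30-DT, C2orf74-DT and PCCA-DT overlapped. Their log2 fold changes were -0.03 (SE 0.26), -0.02 (SE 0.29) and -0.21 (SE 0.26). The RAB30-DT sum joins transcripts whose fold changes have opposite signs. RAB30-DT-205 was 1.05, 1.64 and 0.924 FPKM in A549 and 2.47, 5.28 and 4.47 FPKM in A549/DDP cells (log2 fold change 1.17, SE 0.31, adjusted p = 0.0789). RAB30-DT-206 was 4.69, 8.42 and 4.02 FPKM against 3.68, 1.80 and 2.88 FPKM (log2 fold change -0.80, SE 0.35, adjusted p = 0.232). In both the groups were separated, and neither was called. ZC3H12A-DT was 15.9, 13.5 and 12.5 FPKM in A549 and 12.4, 12.6 and 13.6 FPKM in A549/DDP cells (log2 fold change -0.10, SE 0.22, adjusted p = 0.795). Its levels in the lines overlapped.

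SLC12A2-DT, the member at the second highest level, was split over 11 tested transcripts, more than any other. SLC12A2 encodes a sodium, potassium and chloride cotransporter. The SLC12A2-DT gene sum was 20.0, 22.9 and 20.1 FPKM in A549 and 14.2, 12.7 and 10.9 FPKM in A549/DDP cells, without overlap (log2 fold change -0.70, SE 0.22, adjusted p = 0.0836). The difference was unequal over the transcripts. SLC12A2-DT-202 was 4.71, 4.13 and 3.01 FPKM in A549 and 0.106, 1.72 and 0.0687 FPKM in A549/DDP cells (log2 fold change -1.73, adjusted p = 0.0570). SLC12A2-DT-209 was 1.27, 1.50 and 2.24 FPKM against 0.0517, 0 and 0.00188 FPKM (log2 fold change -1.37, adjusted p = 0.0151). It passed the filter only through the A549 libraries. Other transcripts differed less, and SLC12A2-DT-207 was 0.223, 0.805 and 0.960 FPKM against 1.15, 0.852 and 1.30 FPKM (log2 fold change 0.36). The starts of 202 and 209 are 691 and 676 bases from SLC12A2, and 2 transcripts with starts at 666 and 692 bases had log2 fold changes of -0.81 and 0.13. None of the 11 was called, and the split of reads among overlapping transcripts is an estimate. The 2 longest also overlap the coding gene CCDC192 on the opposite strand.

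**Figure D4:**
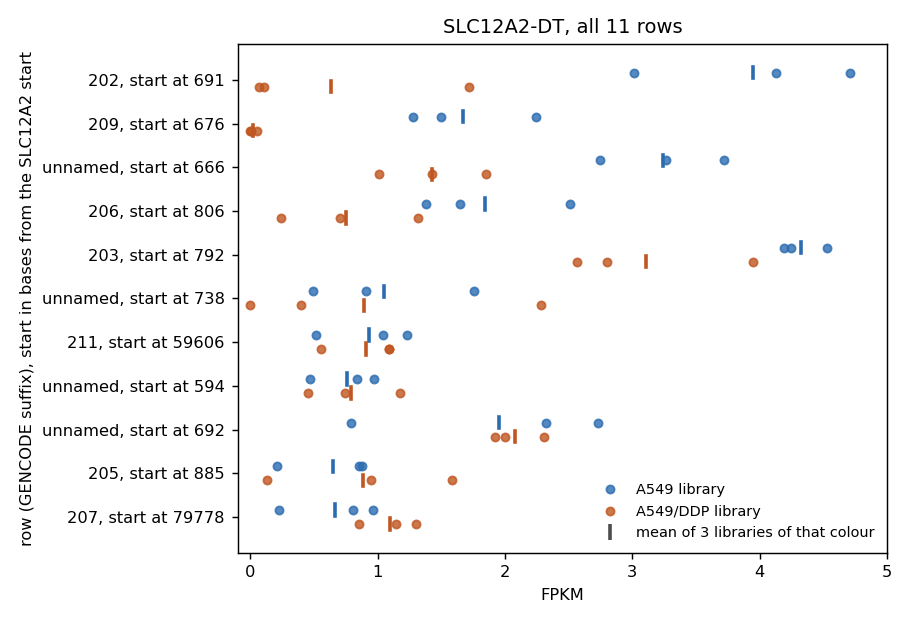
FPKM (horizontal axis) of the 11 tested SLC12A2-DT transcripts, named by the GENCODE suffix where the span matched and by the distance of their start from that of SLC12A2, with 1 point per library and a bar at the mean of each line. Transcripts 202 and 209 at the top have log2 fold changes of -1.73 and -1.37, and that of 207 at the bottom is 0.36.

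Across all members, 45 genes had 2 or more tested transcripts, and in 20 of these the transcripts had fold changes of both signs. SLC12A2-DT was the only member with transcripts of opposite sign that differed by more than 2 on the log2 scale. Of 218 tested transcripts with a partner start, 173 began within 1000 bases of it and 45 farther away. The median log2 fold change was 0.04 in both classes. An unadjusted p under 0.05 was found in 40 of the near transcripts (23.1%) and in 7 of the far ones (15.6%). A coding gene on the opposite strand was overlapped by 73 of the 219 tested transcripts and one on the same strand by 8.

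To see whether a divergent gene differed between the lines along with its partner, both gene sums were set side by side. Values of both passed the filter in 101 pairs. Both were higher in A549/DDP cells in 37 pairs and both lower in 21, while the divergent gene was higher and its partner lower in 16 and the reverse held in 27. The direction was the same in 57.4% of the pairs. Across the pairs, Pearson's r of the log2 fold changes was 0.18 and Spearman's rho 0.23, as a description over genes that share the 6 libraries. The value depended on the filter and on how transcripts were joined. With the filter at 2 FPKM r was -0.0059 over 23 pairs (47.8% in the same direction), and with the highest transcript of each gene it was 0.02 over 84 pairs (50%). Among these 101 pairs the partner was at the higher level in 75 and the divergent gene in 26. The median ratio of the divergent gene to the partner was 0.401. A further 49 tested members had no tested partner and are left out of these counts. A partner sum is also not the level of its mRNA.

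In 25 pairs the divergent gene had an unadjusted p under 0.05, and in 17 of these the partner had the same sign. Of the partners in all 101 pairs, 22 had an unadjusted p under 0.05. Both genes were under 0.05 in KDM7A, RPAP3 and SLC2A1, each with the same sign. KDM7A encodes a histone demethylase, and KDM7A-DT (log2 fold change -0.72) and KDM7A (-0.69) had adjusted p values of 0.0877 and 0.0888. RPAP3 is a cochaperone in the assembly of RNA polymerase II, and RPAP3-DT (log2 fold change 0.76) and RPAP3 (0.94) had 0.0655 and 0.0895. SLC2A1 encodes the glucose transporter GLUT1, and SLC2A1-DT (log2 fold change 0.53) and SLC2A1 (1.06) had 0.147 and 0.0305. None of these was called.

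The largest differences between the fold change of a member and that of its partner were in ITGB1-DT, described above, and GARS1-DT. GARS1 encodes glycyl-tRNA synthetase and was the only partner called among the 101. The GARS1 gene sum was 236, 197 and 246 FPKM in A549 and 66.4, 58.9 and 59.2 FPKM in A549/DDP cells (log2 fold change -1.86, SE 0.20, adjusted p = 0.00188). GARS1-DT lay the other way, at 10.2, 11.2 and 10.7 FPKM in A549 and 14.1, 14.1 and 17.7 FPKM in A549/DDP cells (log2 fold change 0.47, SE 0.22, adjusted p = 0.207). Its groups did not overlap, but it was not called. The annotated main start of GARS1-DT is 32053 bases from that of GARS1. Of its 9 tested transcripts, 3 start within 118 bases of GARS1, with log2 fold changes of 0.43, 0.05 and 0.03, and 4 overlap the annotated GARS1 gene on the opposite strand. A further 3 overlap another coding gene on their own strand.

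In 4 of the other pairs named for this difference all A549/DDP values of the partner lay above its A549 values. Pairs were picked for a large difference, which favours partners that differ between the lines. Of all gene sums, 21.8% were separated in this direction. ZC3H12A, which encodes an RNase that cuts inflammatory mRNAs, was 2.65, 2.01 and 1.65 FPKM in A549 and 5.71, 6.14 and 5.20 FPKM in A549/DDP cells (log2 fold change 1.12, adjusted p = 0.0244), while ZC3H12A-DT overlapped between the lines. EIF3J, which encodes a translation initiation factor, was 3.17, 1.63 and 3.66 FPKM against 7.73, 8.39 and 4.62 FPKM (log2 fold change 1.06, adjusted p = 0.0724). EIF3J-DT was 5.26, 2.38 and 2.49 FPKM against 2.21, 1.24 and 2.26 FPKM (log2 fold change -0.55, adjusted p = 0.3), and without A549 replicate 1 its log2 fold change was -0.26. EDRF1 had a log2 fold change of 1.20 (adjusted p = 0.0910) beside -0.35 for EDRF1-DT, and DCTN6, a dynactin subunit gene, 0.97 (adjusted p = 0.0410) beside -0.33 for DCTN6-DT. DCTN6-DT was 2.33, 0.798 and 0.809 FPKM in A549 and 0.801, 0.784 and 0.714 FPKM in A549/DDP cells, and its log2 fold change was -0.03 without A549 replicate 1. That of EDRF1-DT was -0.17 without A549/DDP replicate 1 and -0.57 without A549/DDP replicate 3. The SNRPF gene sum had 0.32 beside -0.94 for SNRPF-DT, and TNFRSF10A had 0.04 beside -1.13 for TNFRSF10A-DT.

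**Figure D5:**
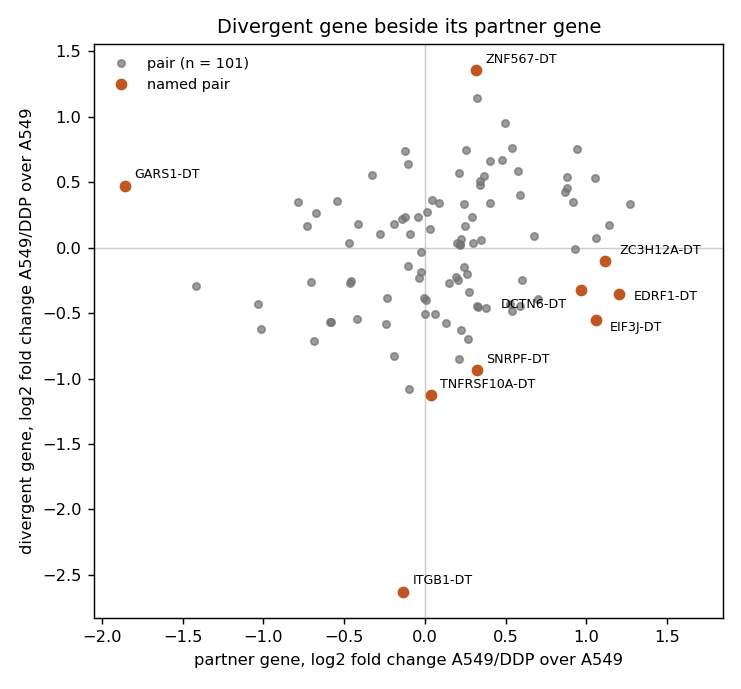
Log2 fold change of the divergent gene (vertical axis) against that of its partner (horizontal axis), A549/DDP over A549 cells, for the 101 pairs with both gene sums tested. Named are ZNF567-DT and the 8 pairs whose fold changes differ most, among them ITGB1-DT with -2.63 beside -0.13 and GARS1-DT with 0.47 beside -1.86.

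Genes known to act on divergent RNA were listed by role. Of 54 genes, 47 were listed and 44 gene sums were tested, of which 0 were called in either direction and 9 (20.5%) had an unadjusted p under 0.05, where 27.1% of all gene sums did. Their median log2 fold change was 0.19, beside 0.17 for all. For the exosome and its adaptors it was 0.33 (13 tested), for cap binding 0.69 (3), for U1 snRNP 0.10 (3), for cleavage and polyadenylation 0.26 (12) and for Integrator 0.15 (13). The lowest adjusted p was that of EXOSC1, an exosome subunit gene, which was 3.32, 7.23 and 4.63 FPKM in A549 and 1.25, 1.45 and 1.86 FPKM in A549/DDP cells (log2 fold change -1.22, adjusted p = 0.0378). SRRT, whose product links the cap to RNA decay, had a log2 fold change of 0.71 (adjusted p = 0.0957), and SYMPK, a scaffold of the cleavage machinery, one of -0.85 (adjusted p = 0.0726). These too are sums of mostly non-coding transcripts.

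The libraries carried epithelial RNA. Marker values are also sums of the listed, mostly non-coding transcripts, so they are not mRNA levels. All 6 epithelial markers were above 0, with a summed level of 859 to 1149 FPKM in A549 and of 2077 to 2656 FPKM in the A549/DDP libraries, and KRT8 was called higher. KRT19 was only at 0.0820 to 0.470 FPKM over the 6 libraries and did not pass the filter, and EPCAM was at 0.0331 to 1.93 FPKM. KRT8 was 535, 268 and 455 FPKM in A549 and 1731, 2043 and 1491 FPKM in A549/DDP cells, and the other markers did not share its difference evenly. KRT7 was 494, 521 and 181 FPKM against 276, 265 and 278 FPKM (log2 fold change -0.40), EPCAM had a log2 fold change of -0.28, and CDH1 and KRT18 had 2.06 and 0.76, none of them called. The part of this difference in the results above was not tested. Of 4 alveolar markers listed 1 was above 0, at no more than 0.561 FPKM in sum, and SFTPA1, SFTPB and SFTPC were at 0. Of 5 fibroblast markers 3 were above 0, at no more than 0.964 FPKM in sum, and DCN and LUM were at 0. Of 3 leukocyte markers listed 1 was above 0, at no more than 0.112 FPKM, and PTPRC was at 0, as were the endothelial markers PECAM1 and VWF. Over the 150 tested members, Pearson's r of log2(FPKM + 1) was 0.82 to 0.87 between libraries of A549, 0.92 between those of A549/DDP cells and 0.72 to 0.78 between the lines. For all listed transcripts r was computed without the filter and without summing by gene. Its values are therefore not comparable with those of the members. A549 replicate 2 had r of 0.803 and 0.806 with the other A549 libraries and of 0.791 to 0.804 with the A549/DDP libraries. A549 replicates 1 and 3 had 0.807 with each other and 0.750 to 0.762 with the A549/DDP libraries.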

How the data were processed

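According to the study, the authors used Trimmomatic for trimming, HISAT2 for alignment to hg38 and Cufflinks tools for quantification, while the submitters' notes name CASAVA, HISAT2, StringTie and DESeq2 without versions. No source states which of these tools gave the FPKM the authors deposited. The 6 deposited tables list transcripts by gene ID and span, and names came from GENCODE 44. Reads per library are not given, and the fullest bin of ratios of values under 0.5 FPKM held 0.521% to 0.874% of them, so whole reads were not recovered and no count test was run. Log2(FPKM + 1) was fitted with limma 3.58.1 (R 4.3.3), with a variance trend and no pairing. Named are called members, the 10 highest, the 8 largest values in each direction with separated groups, the 8 pairs that differed most and genes with opposed transcripts. On simulated data with 10591 gene sums, 0% of 2-fold, 40% of 4-fold and 98% of 16-fold changes were called. Among 20663 transcripts these shares were 0%, 6% and 70%. The changed features were drawn from all tested ones and not from the members, whose tested gene sums had a median level of 1.14 FPKM. The members and lists were chosen with earlier results of these data known. Python 3.11.15, pandas 2.3.3, pysam 0.24.0 and matplotlib 3.10.9 were used. Sequence around the starts of ITGB1-DT is not reported here.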

Additional observations from a re-analysis of the deposited data

How the results depend on the processing

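ITGB1-DT stayed the 1 gene sum called lower under every alternative but the fit without A549/DDP replicate 2, so leaving out 1 library gave 0 to 1. The gene sum called higher, ZNF567-DT, was called under the stricter filter of 2 FPKM and with array weights. The count was 0 after quantile normalization, after median-ratio scaling, with a pseudocount of 0.1, without a filter, with the highest transcript of each gene, and in each fit without 1 library (0 to 0). The 1 transcript called lower was lost, to 0, without a filter and in each fit without 1 library (0 to 0), where fewer samples are left. No transcript was called higher under any alternative. With the replicate number as a block, 0 transcripts and 0 gene sums were higher, 0 transcripts and 1 gene sum were lower. The numbers share no stated culture or day, and the deviations of same-numbered libraries had r of 0.01, -0.03 and -0.01, so the block is not a pairing of the samples. The share of pairs with the same direction was 57.43% and 47.83% to 59.41% under the alternatives, and Pearson's r of their fold changes was -0.0059 to 0.23. Of 434 fold changes of 32 named genes and transcripts under alternatives, 10 changed sign, in 3 genes. C2orf74-DT was 0.019 with array weights, 0.069 with the highest transcript and -0.28 to 0.19 without 1 library, RAB30-DT was -0.16 to 0.17 without 1 library, and EDRF1-DT was 0.041 with the highest transcript. With the highest transcript in place of the sum, other named values moved by over 1.5 times, to -0.80 for RAB30-DT, 0.17 for ANKRD42-DT, 0.42 for HCCS-DT, 0.34 for TMEM161B-DT, 0.05 for GARS1-DT, -1.10 for RIPK2-DT, -0.39 for SLC12A2-DT and -0.54 for SOCS3-DT. Without read numbers, the precision of low values is unknown.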
